A study of Rattus norvegicus with 6 samples.

Results

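The classical dual-specificity MAP kinase phosphatases are enzymes that remove phosphate from both the threonine and the tyrosine of activated MAP kinases. Of the 10 genes described here, 8 are classical, and Dusp14 and Dusp15 are atypical members without the kinase-binding domain. Dusp1, Dusp4, Dusp5, Dusp6, Dusp7, Dusp8, Dusp10, Dusp14, Dusp15 and Dusp16 were taken by gene symbol from the mRNA table, where they are 10 of 30957 genes. All 10 passed the low-count filter, which kept 15195 genes.

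MAP kinases carry signals from growth factors, cytokines and stress to the nucleus, and the kinases ERK, JNK and p38 are active only while both residues of their activation loop are phosphorylated. The classical phosphatases of this family switch them off, and several are themselves induced by the kinases they act on, which makes them feedback regulators. In peripheral nerve, ERK and JNK signaling in Schwann cells is known to take part in the loss of the myelinating state after injury and in the repair state that follows.

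The tissue was sciatic nerve of 1-month-old Sprague-Dawley rats, sequenced as total RNA after removal of ribosomal RNA. In the D4 and D7 groups the middle of the left sciatic nerve had been clamped 4 or 7 days before sampling. The sample labels call the control a normal nerve, whereas the methods of the study describe the same operation without the clamp. From each group 2 rats were sequenced, with a separate library for each rat (a and b), so p-values measure the spread between these libraries. Library totals of the mRNA counts were 22497040 (control a), 18751038 (control b), 22859592 (D4 a), 25350886 (D4 b), 20018027 (D7 a) and 18727255 (D7 b). Levels are given as CPM, the counts scaled by library total and TMM factor, unless FPKM is named, and log2 fold changes carry their standard error (SE). A gene was called when its adjusted p was under 0.05 and its log2 fold change at least 1 in size, with p from the quasi-likelihood test of edgeR and adjusted by the Benjamini-Hochberg procedure over all genes tested.

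Which phosphatase was most abundant changed between the groups. Only FPKM, which is scaled by gene length, compares levels between genes. It carries no TMM factors, without which the median of all genes moved to 0.25 at D4 and 0.31 at D7, so small gaps in FPKM or its sums between groups are not read. On this scale Dusp15 made up 72.6% and 64.3% of the summed level of the 10 genes in control a and b, 1.27% and 1.22% in D4 a and b, and 14.5% and 9.33% in D7 a and b. Dusp10 made up 1.06% and 1.17% in control a and b, 43.9% and 50.1% in D4 a and b, and 19.9% and 24.4% in D7 a and b. Dusp15 thus had the highest FPKM in both control libraries and Dusp10 in both D4 libraries, while Dusp6 was highest in D7 a and Dusp10 in D7 b.

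**Figure D1:**
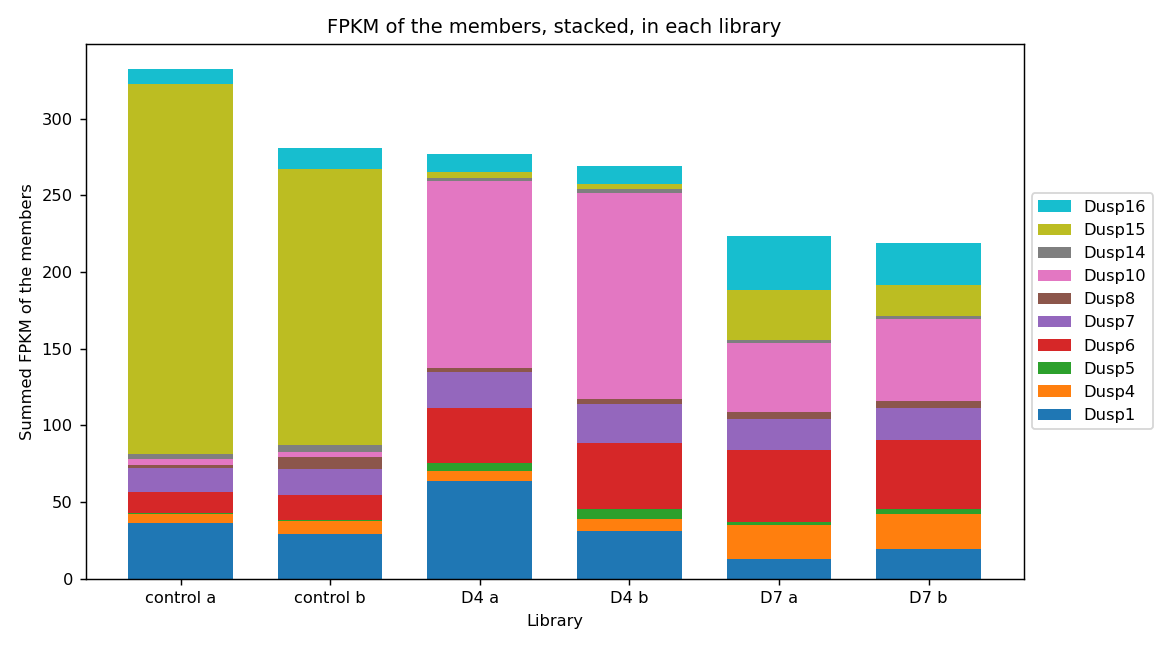
Stacked bars show the FPKM of the 10 genes in each of the 6 libraries, with the library on the horizontal axis and summed FPKM on the vertical axis. Bar heights were 332 and 281 for control a and b, 277 and 269 for D4 a and b, and 224 and 219 for D7 a and b, and the Dusp15 segment of the control bars gave way to Dusp10 on D4.

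In the control nerve, mean FPKM fell from Dusp15 (211) over Dusp1 (32.6), Dusp7 (16.3), Dusp6 (15.0), Dusp16 (11.5), Dusp4 (7.37), Dusp8 (4.98), Dusp14 (3.82) and Dusp10 (3.40) to Dusp5 (0.751). The libraries of Dusp7 and Dusp6 overlapped, as did those of Dusp4 and Dusp8, and those of Dusp8, Dusp14 and Dusp10. On D4 the order by mean FPKM was Dusp10 (128), Dusp1 (47.4), Dusp6 (39.4), Dusp7 (24.6), Dusp16 (12.0), Dusp4 (7.43), Dusp5 (5.54), Dusp15 (3.41), Dusp8 (2.63) and Dusp14 (2.44). Only the FPKM of Dusp1 and Dusp6 overlapped between neighbours of that order, along with Dusp8 and Dusp14. On D7 the order by mean FPKM was Dusp10 (49.1), Dusp6 (46.2), Dusp16 (31.6), Dusp15 (26.4), Dusp4 (22.6), Dusp7 (20.5), Dusp1 (16.0), Dusp8 (4.68), Dusp5 (2.50) and Dusp14 (2.01). There Dusp10 overlapped Dusp6, Dusp16 overlapped Dusp15, Dusp15 overlapped Dusp4 and Dusp7, and Dusp5 overlapped Dusp14. Without Dusp14 and Dusp15, which lack the kinase-binding domain of the classical phosphatases, the 8 others summed to an FPKM of 87.4 and 96.2 in control a and b, 271 and 264 in D4 a and b, and 189 and 197 in D7 a and b.

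At D4, 3 of the 10 genes were called higher and 1 lower than control. The higher genes were Dusp5, Dusp6 and Dusp10, and the lower gene was Dusp15. Of all 15195 genes, 21.9% were called at D4, 11.2% higher and 10.7% lower. At D7, 5 were called higher (Dusp4, Dusp5, Dusp6, Dusp10 and Dusp16) and 3 lower (Dusp1, Dusp14 and Dusp15), beside 18.8% of all genes, 9.83% higher and 9.02% lower. Between D7 and D4, 3 were called higher on D7 (Dusp4, Dusp15 and Dusp16) and 1 lower (Dusp10), beside 2.18% of all genes, 1.68% higher and 0.494% lower. The median size of the log2 fold change, regardless of sign, was 1.02 over the 10 genes and 0.52 over all genes at D4, and 1.32 against 0.46 at D7. The corresponding sizes between D7 and D4 were 1.27 and 0.25. The signed medians were 0.02 for the 10 genes and -0.04 for all genes at D4, 0.60 and 0.01 at D7, and -0.03 and 0.01 between D7 and D4. The 10 genes were chosen with earlier results of these data known. Their shares of calls, sizes and library gaps beside those of all genes are therefore a description and no test. The comparisons with control share the control libraries and are set side by side only. Leaving out control a left 5 members called at D7, and dropping the TMM factors left 6. The edgeR calls between the days needed both D4 libraries and were lost without D4 a or without D4 b, while the log2 fold changes stayed similar in size. Without D4 a and without D4 b they were 1.47 and 1.74 for Dusp4 and -1.46 and -1.32 for Dusp10. For Dusp15 they were 3.01 and 2.90, and for Dusp16 1.41 and 1.37. DESeq2, with all libraries, called 505 genes and 6 of the members.

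**Figure D2:**
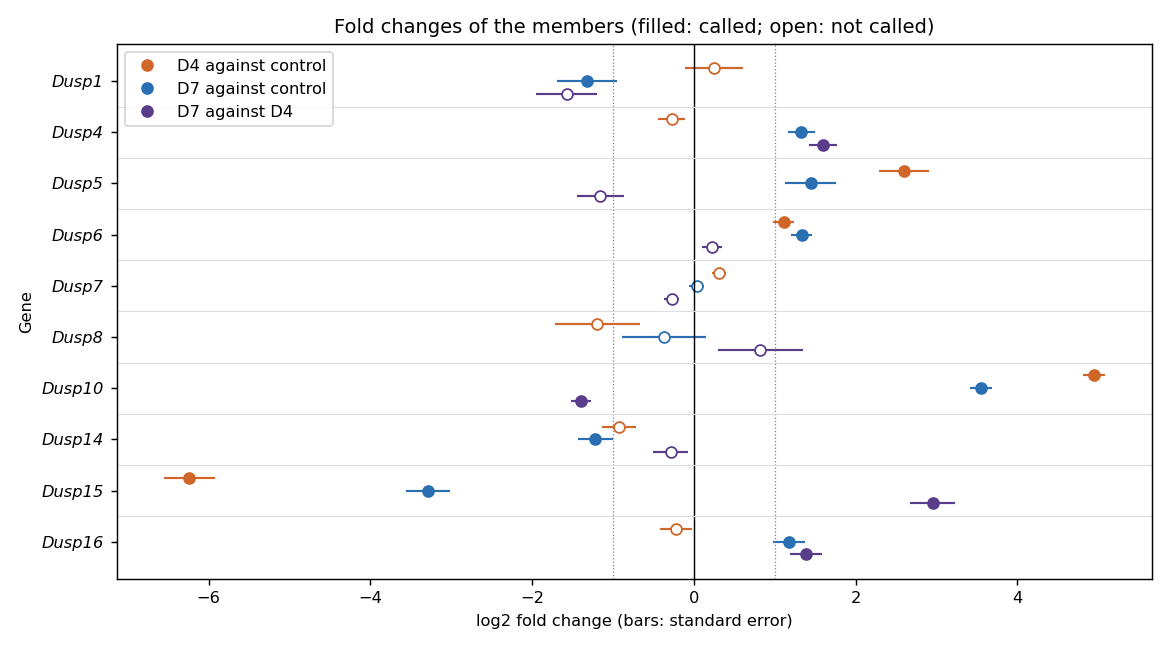
Points show the log2 fold change of each gene (horizontal axis) for the 3 comparisons, with bars of 1 SE, filled where the gene was called; dotted lines mark log2 fold changes of 1 and -1. Dusp15 had the lowest value (-6.24) and Dusp10 the highest (4.95), both at D4.

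The CPM of the D4 libraries did not overlap those of the control for 6 of the 10 genes, 4 of them higher and 2 lower, beside 76.2% of all genes. On D7 the count against control was 8 of 10, beside 71.9% of all genes, and between D7 and D4 it was 10 of 10, beside 60.6% of all genes. The plot of CPM by library shows these gaps and the pairs of libraries within each group.

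**Figure D3:**
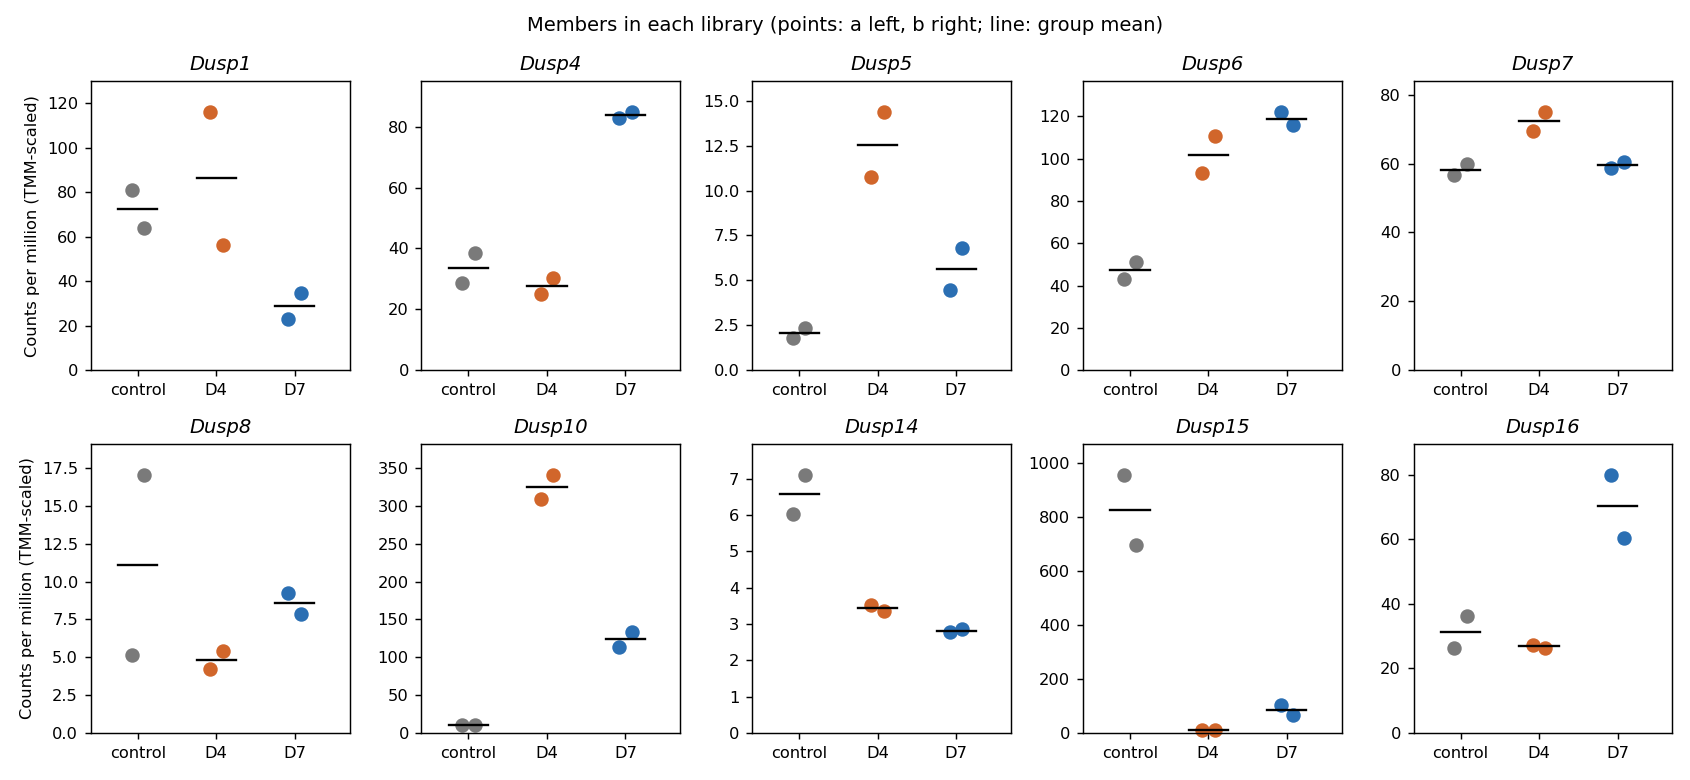
Each panel shows 1 gene, with the group on the horizontal axis and TMM-scaled CPM on a vertical axis that starts at 0; points are libraries a and b and the line is the group mean. Dusp4 and Dusp16 stand apart only on D7, Dusp10 is high in all 4 injured libraries, and the libraries of Dusp1 on D4 and of Dusp8 in the control lie far apart.

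Among the nuclear phosphatases, Dusp1 is the product of an immediate early gene and acts on p38, JNK and ERK. Its promoter is shown because it was the only member promoter in which a script found the cAMP response element (CRE), written TGACGTCA. Both strands of the 250 bases before each gene start were searched for the CRE and for the AP-1 site, written TGANTCA with N any base, and neither motif can contain the other. Of 33469 promoter windows in the RefSeq table for GRCr8, 1.59% held a CRE and 6.34% an AP-1 site. For 9 of the 10 genes the table had 11 windows. The Dusp1 window is on the plus strand at chr10:17184603-17184852 of GRCr8, reads 5′ to 3′, and has the CRE in capitals, 124 bases before the start.
Dusp1: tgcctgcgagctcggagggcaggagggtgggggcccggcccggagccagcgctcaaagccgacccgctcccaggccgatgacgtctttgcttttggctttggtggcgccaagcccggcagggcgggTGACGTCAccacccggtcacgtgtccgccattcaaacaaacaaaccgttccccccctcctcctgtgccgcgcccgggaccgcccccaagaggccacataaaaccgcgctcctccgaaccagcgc
A match to these letters is a description of the sequence and no evidence that a factor was bound.

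Dusp1 (ENSRNOG00000003977, chr10:16970626-16973418 on the Rnor_6.0 build of the files) stood at 81.0 and 63.7 CPM in control a and b, 116 and 56.3 in D4 a and b, and 23.2 and 34.6 in D7 a and b. D4 a was above and D4 b below both control libraries, and both D7 libraries were below all others. Its log2 fold change was 0.25 (SE 0.36) at D4, with an adjusted p of 0.603, and its sign rested on D4 a, since without that library it was -0.36. At D7 Dusp1 was called lower, with a log2 fold change of -1.32 (SE 0.37) and an adjusted p of 0.0352. That call was lost without control a (-1.14), control b (-1.49) or D7 a (-1.03), and without TMM factors (-1.03), and the adjusted p ranged from 0.000632 to 0.158 over the alternatives. Between D7 and D4 the log2 fold change was -1.57 (SE 0.37) with an adjusted p of 0.072 and was not called. DESeq2 did call it (-1.61), as did the fit without the low-count filter (-1.58), while the value was -0.96 without D4 a and -2.00 without D4 b, and the adjusted p ranged from 0.000115 to 0.286.

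Dusp4 (ENSRNOG00000011921, chr16:61078175-61091169), a nuclear phosphatase of ERK, JNK and p38, was measured at 28.6 and 38.3 CPM in control a and b, 25.1 and 30.3 in D4 a and b, and 82.9 and 84.8 in D7 a and b. The control and D4 libraries overlapped, and both D7 libraries were above all 4 of them. At D4 its log2 fold change of -0.27 (SE 0.17) was not called, with an adjusted p of 0.229, and it was 0.014 without TMM factors. At D7 Dusp4 rose by a log2 fold change of 1.33 (SE 0.17), with an adjusted p of 0.00232. It was also higher on D7 than on D4, by 1.60 (SE 0.17) on the log2 scale with an adjusted p of 0.0135. That call was lost without D7 a (1.60), D4 a (1.47) or D4 b (1.74), where the size of the difference stayed similar.

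Dusp5 (ENSRNOG00000014061, chr1:274245184-274258595), a nuclear phosphatase selective for ERK, was the member with the lowest FPKM in the control nerve. Its counts were 35 and 39 in control a and b, 262 and 389 in D4 a and b, and 95 and 138 in D7 a and b. In CPM these were 1.80 and 2.35 in control a and b, 10.8 and 14.4 in D4 a and b, and 4.46 and 6.83 in D7 a and b. The groups were ordered control, D7, D4, with no overlap. Dusp5 rose at D4 by a log2 fold change of 2.60 (SE 0.31), which is 6.06-fold, with an adjusted p of 0.0014. At D7 it was higher than control by 1.44 (SE 0.31) on the log2 scale, with an adjusted p of 0.015. The D7 call was lost without control a (1.26) or D7 b (1.11), with adjusted p from 0.000982 to 0.0624 over the alternatives. Between D7 and D4 its log2 fold change of -1.16 (SE 0.29) was not called, with an adjusted p of 0.0775, while DESeq2 called it (-1.20), and the adjusted p ranged from 0.00946 to 0.335.

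Dusp6 and Dusp7 are cytoplasmic phosphatases that act on ERK, and Dusp6 is a widely used marker of ERK feedback. Dusp6 (ENSRNOG00000023896, chr7:41475163-41479392) stood at 43.2 and 51.1 CPM in control a and b, 93.0 and 111 in D4 a and b, and 122 and 116 in D7 a and b. All 4 injured libraries were above both control libraries, and both D7 libraries were above both D4 libraries. Dusp6 was called higher at D4, with a log2 fold change of 1.11 (SE 0.13) and an adjusted p of 0.00133, and at D7, with 1.33 (SE 0.13) and an adjusted p of 0.00103. The D4 value lay near the threshold and fell under it without control a (0.99) or D4 b (0.98). The difference between the days, a log2 fold change of 0.22 (SE 0.13) with an adjusted p of 0.342, was not called.

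Dusp7 (ENSRNOG00000010789, chr8:115069095-115076130) was measured at 56.7 and 59.8 CPM in control a and b, 69.4 and 75.0 in D4 a and b, and 58.8 and 60.5 in D7 a and b. Its D4 libraries were above the others by a small margin, and the control and D7 libraries overlapped. At D4 its log2 fold change was 0.31 (SE 0.09) with an adjusted p of 0.034, under the fold threshold and so not called. At D7 it was 0.04 (SE 0.09) with an adjusted p of 0.78, and between D7 and D4 -0.28 (SE 0.09) with an adjusted p of 0.134. Without TMM factors Dusp7 was 0.60 at D4 and 0.33 at D7, with adjusted p of 0.00343 and 0.0315.

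Dusp8, Dusp10 and Dusp16 act mainly on JNK and p38. The promoter of Dusp10, the gene with the largest rise, is shown for comparison with that of Dusp1, and held neither motif. It lies on the plus strand at chr13:98145643-98145892 of GRCr8, from RefSeq.
Dusp10: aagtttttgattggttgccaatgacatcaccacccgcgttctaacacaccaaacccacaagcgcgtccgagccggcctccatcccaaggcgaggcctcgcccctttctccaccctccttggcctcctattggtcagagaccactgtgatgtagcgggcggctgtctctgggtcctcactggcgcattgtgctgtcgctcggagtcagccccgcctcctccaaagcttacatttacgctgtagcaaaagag
Dusp10 (ENSRNOG00000004003, chr13:104284660-104321455 on Rnor_6.0) stood at 11.02 and 10.01 CPM in control a and b, 309 and 341 in D4 a and b, and 113 and 134 in D7 a and b. Both libraries of each group lay close together, and the groups were ordered control, D7, D4 with no overlap. At D4 Dusp10 was 30.9-fold higher than control, a log2 fold change of 4.95 (SE 0.14) with an adjusted p of 8.81e-05. At D7 it was 11.7-fold higher, a log2 fold change of 3.55 (SE 0.13) with an adjusted p of 0.000174. From D4 to D7 it was lower by a log2 fold change of -1.39 (SE 0.12), with an adjusted p of 0.0117.

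Dusp16 (ENSRNOG00000006628, chr4:168472412-168517177), which moves between nucleus and cytoplasm and prefers JNK, was measured at 26.2 and 36.2 CPM in control a and b, 27.2 and 26.4 in D4 a and b, and 80.0 and 60.4 in D7 a and b. The D4 libraries lay within the range of the control, and both D7 libraries were above all 4 of these. At D4 its log2 fold change was -0.22 (SE 0.20) with an adjusted p of 0.407, and it was 0.068 without TMM factors and 0.033 without control b. At D7 it was called higher than control, by 1.17 (SE 0.20) on the log2 scale with an adjusted p of 0.00638, and fell under the fold threshold without control a (0.96) or D7 a (0.99). It was also higher than on D4, by 1.39 (SE 0.20) with an adjusted p of 0.0259. That call was lost without D7 a (1.16), D4 a (1.41) or D4 b (1.37). Dusp4 and Dusp16 were thus the members that were called at D7 and between D7 and D4, both higher, and not at D4.

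Dusp8 (ENSRNOG00000029394, chr1:215030429-215033460) had the widest gap between libraries of a group. It stood at 5.15 and 17.1 CPM in control a and b, 4.23 and 5.43 in D4 a and b, and 9.25 and 7.87 in D7 a and b. Control b was the highest library and 3.31 times control a, so the control libraries spanned all 4 injured ones except D4 a, which was lower. It was called in none of the comparisons: against control the log2 fold change was -1.19 (SE 0.53) at D4 and -0.37 (SE 0.52) at D7, with adjusted p of 0.115 and 0.604, and the direct difference of the days was 0.82 (SE 0.53) with an adjusted p of 0.39. The values against control rested on the control libraries, since without control a the D4 value was -1.82 and called, and without control b the D4 value was -0.093 and the D7 value 0.73. Summed FPKM of the skeletal muscle markers (4 of 5 listed were found) also differed between libraries of a group, at 4.86 and 20.2 in control a and b, 31.3 and 3.94 in D4 a and b, and 6.09 and 8.40 in D7 a and b. The most abundant muscle marker was Myh7 in control a, Acta1 in control b and D4 a, and Tnnt3 in D4 b, D7 a and D7 b, and Ckm was at 0 in control a and D7 a. Of the 4, Myh7 alone was called, lower at D4 and at D7. The part of muscle tissue in the Dusp8 and Dusp1 values was not tested.

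Dusp14 and Dusp15 are small atypical members, and whether Dusp15 acts on a MAP kinase was not tested here. Dusp14, which acts on JNK, ERK and the kinase adaptor TAB1, had 3 promoter windows, and the AP-1 site among the members lay in 1 of them. That window is on the minus strand at chr10:69452342-69452591 of GRCr8, from RefSeq, with the AP-1 site in capitals 89 bases before the start. The window of Dusp15, the gene with the largest fall, held neither motif and lies on the minus strand at chr3:161879251-161879500. Both are printed 5′ to 3′ along their gene.
Dusp14: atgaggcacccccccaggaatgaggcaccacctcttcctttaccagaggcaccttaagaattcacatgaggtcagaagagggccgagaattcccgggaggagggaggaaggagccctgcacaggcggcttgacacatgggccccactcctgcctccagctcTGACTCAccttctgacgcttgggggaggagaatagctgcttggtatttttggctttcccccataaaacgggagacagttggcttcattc
Dusp15: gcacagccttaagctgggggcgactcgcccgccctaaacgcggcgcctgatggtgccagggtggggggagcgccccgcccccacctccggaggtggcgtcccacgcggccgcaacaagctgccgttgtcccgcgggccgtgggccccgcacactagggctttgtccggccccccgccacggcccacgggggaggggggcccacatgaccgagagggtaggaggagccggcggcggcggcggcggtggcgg
The windows of Dusp5, Dusp6, Dusp7, Dusp8 and Dusp16 and the other windows of Dusp14 also held neither motif.

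Dusp14 (ENSRNOG00000030091, chr10:71363688-71383602 on Rnor_6.0) stood at 6.03 and 7.11 CPM in control a and b, 3.53 and 3.36 in D4 a and b, and 2.77 and 2.87 in D7 a and b. All 4 injured libraries were below both control libraries, and its counts were low, from 58 in D7 b to 118 in control b. At D4 its log2 fold change of -0.93 (SE 0.21), with an adjusted p of 0.0152, missed the fold threshold and passed it without control a (-1.05). At D7 Dusp14 was called lower, by -1.22 (SE 0.22) with an adjusted p of 0.00779, and it was not called without TMM factors (-0.92). The difference of D7 from D4 was -0.29 (SE 0.22) with an adjusted p of 0.464.

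Dusp15 (ENSRNOG00000008534, chr3:148417993-148428494), which has also been studied in the myelin-forming oligodendrocytes of the brain, had the largest change. Its counts were 18605 and 11595 in control a and b, 277 and 285 in D4 a and b, and 2225 and 1313 in D7 a and b. In CPM these were 958 and 699 in control a and b, 11.4 and 10.5 in D4 a and b, and 104 and 65.0 in D7 a and b. The groups were ordered D4, D7, control with wide gaps and no overlap. At D4 it was 75.7-fold lower than control, a log2 fold change of -6.24 (SE 0.32) with an adjusted p of 0.000128. At D7 it was 9.78-fold lower, a log2 fold change of -3.29 (SE 0.27) with an adjusted p of 0.000647. From D4 to D7 Dusp15 rose 7.74-fold, a log2 fold change of 2.95 (SE 0.27) with an adjusted p of 0.0117. In these bulk samples, fewer cells of a type and less RNA per cell cannot be told apart.

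Markers of the myelinating Schwann cell moved with Dusp15. All 8 of 8 were called lower at D4, 5 of 8 lower at D7, and 5 of 8 higher on D7 than on D4. Their summed FPKM was 38462 and 26991 in control a and b, 1540 and 1825 in D4 a and b, and 7940 and 4983 in D7 a and b. None of them was at 0 in any library, and the D4 libraries had the lowest sums. The part of these cells in the Dusp15 values was not tested.

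Some markers of other cells shared a part of the pattern of Dusp10. Of 6 markers of the repair Schwann cell, 4 were called higher at D4 and 4 at D7, and 2 were lower on D7 than on D4. Their summed FPKM was 12.3 and 13.3 in control a and b, 678 and 735 in D4 a and b, and 390 and 375 in D7 a and b, with Ngfr the most abundant in every library. Of 7 macrophage markers, 7 were called higher at D4 and 5 at D7. The FPKM of the macrophage list summed to 199 and 201 in control a and b, 1117 and 1100 in D4 a and b, and 861 and 937 in D7 a and b, with Lyz2 the most abundant. Both sums stood far above the control in all 4 injured libraries, and most of each sum there came from Ngfr or Lyz2. Olig1 and Gap43 of the repair list were called in no comparison, and Cd14 and Cd163 of the macrophage list were not called at D7. All 4 markers of proliferating cells were called higher at both days. The FPKM of this list summed to 4.69 and 9.62 in control a and b, 163 and 184 in D4 a and b, and 104 and 112 in D7 a and b, with Mki67 the most abundant in control a and Top2a in the other libraries. No marker of these 3 lists was at 0 in any library, and no macrophage or proliferation marker was called between D7 and D4. Called markers of these lists were higher than control, as was Dusp10, and the part of these cells in its values was not tested.

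The remaining marker lists were summed in the same way. Of 5 fibroblast markers, none was called at D4 and 1 was lower at D7. Their summed FPKM was 9888 and 10912 in control a and b, 8304 and 7522 in D4 a and b, and 6572 and 7333 in D7 a and b, with Col3a1 the most abundant. Of the 4 endothelial markers found among 5, 3 were lower at D4 and 4 at D7. Their summed FPKM was 94.8 and 104 in control a and b, 69.5 and 56.5 in D4 a and b, and 40.4 and 59.7 in D7 a and b, with Cdh5 the most abundant. No marker of these lists was at 0 in any library or called between D7 and D4, and those called against control were lower.

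Of 6 T and B cell markers, 4 were tested, and 3 were called higher and 1 lower at D4, with 3 higher at D7 and 1 higher on D7 than on D4. The FPKM of these lymphocyte markers summed to 17.7 and 16.9 in control a and b, 60.9 and 54.5 in D4 a and b, and 62.9 and 65.0 in D7 a and b. Cd4, which macrophages of the rat also carry, was the most abundant in every library. The B cell marker Ms4a1 was at 0 in all libraries but control a. None of the 4 adipocyte markers was called in any comparison, and their summed FPKM was 272 and 224 in control a and b, 77.4 and 37.9 in D4 a and b, and 1.34 and 109 in D7 a and b, with Adipoq the most abundant and no marker at 0. D7 a stood apart from D7 b in these markers, and the part of fat tissue in the members' values was not tested.

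The mRNAs most like a member in pattern were taken as those with the smallest root mean square difference of mean-centred log2 CPM over the 6 libraries. For Dusp15 they were Mal (0.149), the gene described as septin 3 (0.152), Fa2h (0.178), Pmp22 (0.225) and Ddn (0.352), beside a median of 2.55 over all other genes. Mal is a proteolipid of compact myelin, Fa2h makes the 2-hydroxylated lipids of myelin, and Pmp22 is a myelin protein. Mal stood at 3042 and 2201 CPM in control a and b, 26.9 and 32.0 in D4 a and b, and 323 and 196 in D7 a and b. For Dusp10 the mRNAs were the gene described as membrane-associated ring finger (C3HC4) 11 (0.189), Fam132b (0.205), Pttg1 (0.242), Chst8 (0.261) and Ccl2 (0.274), beside a median of 2.10. Pttg1 is securin, the inhibitor of separase in mitosis, and Ccl2 is a chemokine that recruits monocytes. Ccl2 stood at 1.18 and 1.09 CPM in control a and b, 44.7 and 62.5 in D4 a and b, and 12.5 and 21.5 in D7 a and b. The ring finger gene had counts of 0 and 0 in control a and b, 46 and 59 in D4 a and b, and 17 and 21 in D7 a and b. Since these mRNAs were picked by likeness to the member, their order of groups follows from that choice, and distances of genes with counts near 0 depend on the small count added before the logarithm.

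**Figure D4:**
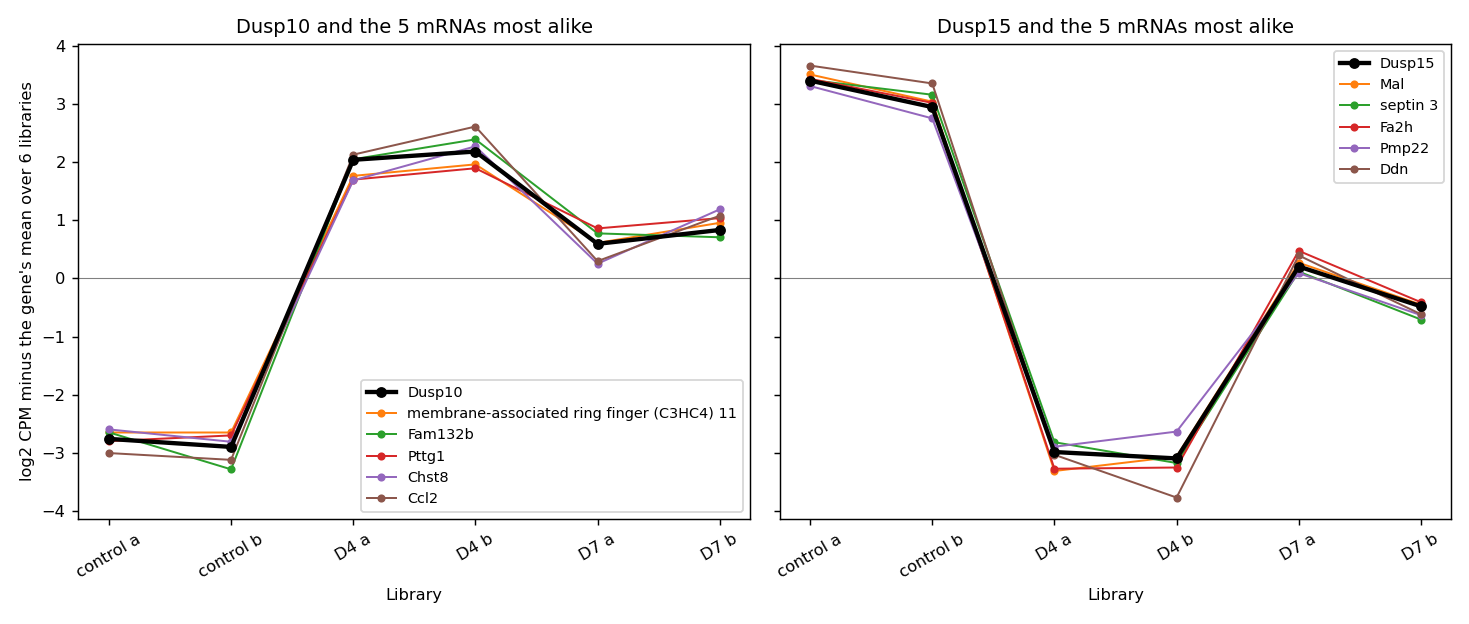
Lines show log2 CPM minus the mean of each gene over the 6 libraries (vertical axis) in each library (horizontal axis), for Dusp10 (left) and Dusp15 (right) in black and the 5 mRNAs most alike in color. Dusp10 and its neighbours were highest in the D4 libraries, and Dusp15 and its neighbours were lowest there and between the extremes on D7.

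No other gene of the mRNA table overlapped the span of a member. In the table of lncRNAs, 14 transcripts lay inside, overlapped or were within 10 kb of 7 of the members (Dusp1, Dusp4, Dusp5, Dusp7, Dusp10, Dusp14 and Dusp16), and 7 of them passed the low-count filter. Of these 7, 1 was called at D4, 2 at D7 and 1 between D7 and D4, beside 10.1%, 5.79% and 0.249% of all 14077 lncRNAs tested. The transcript MSTRG.8516.9 (chr13:104288983-104304842 on Rnor_6.0) lies inside the span of Dusp10. It had counts of 321 and 310 in control a and b, 10653 and 12251 in D4 a and b, and 3247 and 4280 in D7 a and b. It followed the order of Dusp10, with D4 highest and no overlap of the groups. Its log2 fold change was 5.02 (SE 0.19) at D4 with an adjusted p of 0.00079, 3.48 (SE 0.17) at D7 with an adjusted p of 0.00197, and -1.54 (SE 0.16) between D7 and D4 with an adjusted p of 0.0478. Use of the strand in counting is not given in the sources used here, so fragments of Dusp10 and of this transcript cannot be told apart.

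The transcript NONRATT021906.2 (chr4:168470141-168471637) lies 775 bases outside the span of Dusp16. It had counts of 259 and 234 in control a and b, 296 and 404 in D4 a and b, and 877 and 712 in D7 a and b. Like Dusp16, it was highest in both D7 libraries. It was called at D7, with a log2 fold change of 1.59 (SE 0.20) and an adjusted p of 0.0143. The value at D4 was 0.34 (SE 0.19) with an adjusted p of 0.308, and between D7 and D4 it was 1.25 (SE 0.19) with an adjusted p of 0.106. The other 5 tested transcripts lay at Dusp4, Dusp5 and Dusp7 and were called in no comparison, with log2 fold changes from -0.36 to 2.98 at D4. The highest of these belonged to a transcript inside Dusp5 with counts of 4 and 2 in control a and b, 20 and 35 in D4 a and b, and 4 and 16 in D7 a and b, and an adjusted p of 0.0749 at D4.

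The MAP kinases and the other genes of the pathway were counted by list. These lists, too, were chosen with earlier results of these data known. Their counts are to be read beside the 21.9%, 18.8% and 2.18% of all genes called at D4, at D7 and between D7 and D4. Of 12 MAP kinases tested among 14 listed, 2 were called higher at D4 and the same number at D7, with list medians of -0.05 and -0.04. They were the p38 isoforms Mapk13 and Mapk11, both at low levels. Mapk13 stood at 0.464 and 0.241 CPM in control a and b, 3.61 and 1.96 in D4 a and b, and 1.27 and 1.39 in D7 a and b. Mapk13 had a log2 fold change of 2.94 (SE 0.51) at D4 and 1.87 (SE 0.53) at D7, with adjusted p of 0.00561 and 0.0357. Mapk11 stood at 1.39 and 0.724 CPM in control a and b, 7.31 and 6.24 in D4 a and b, and 6.06 and 4.65 in D7 a and b. Mapk11 had a log2 fold change of 2.66 (SE 0.35) at D4 and 2.32 (SE 0.35) at D7, with adjusted p of 0.00204 and 0.00451. For both genes, all 4 injured libraries were above both control libraries.

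Of 6 MAP kinase kinases tested among 7, 1 was called lower at D4, none at D7, and 1 higher on D7 than on D4. All of these calls were Map2k6, an activator of p38. It stood at 31.0 and 30.8 CPM in control a and b, 9.19 and 6.87 in D4 a and b, and 18.8 and 15.1 in D7 a and b, without overlap of the groups. Map2k6 had a log2 fold change of -1.94 (SE 0.19) at D4, -0.87 (SE 0.18) at D7 and 1.08 (SE 0.19) between D7 and D4, with adjusted p of 0.000646, 0.0135 and 0.0375. Of 17 Raf kinases and MAP kinase kinase kinases tested among 21 listed, 1 was called at D4, Map3k9, a mixed lineage kinase of the JNK pathway, with a log2 fold change of 1.46 (SE 0.25) and an adjusted p of 0.00533. Its 4 injured libraries were above both control libraries. At D7, 2 were higher (Map3k9 and Map3k15) and 1 lower (Map3k6), and none differed between D7 and D4. The list medians were 0.13 at D4 and 0.07 at D7 for the MAP kinase kinases, and -0.09 and -0.07 for the kinases above them.

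Of 6 scaffold genes tested among 7, 2 were called lower at D4 and at D7, and none between D7 and D4, with list medians of -0.84 and -0.42 against control. Mapk8ip1, which holds JNK and its activating kinases together, stood at 759 and 531 CPM in control a and b, 66.7 and 82.0 in D4 a and b, and 145 and 102 in D7 a and b. Its injured libraries were all far below the control libraries. Mapk8ip1 had a log2 fold change of -3.12 (SE 0.26) at D4 and -2.38 (SE 0.25) at D7, with adjusted p of 0.000403 and 0.00125. Mapk8ip2, of the same family and at a low level, had log2 fold changes of -3.02 (SE 0.56) and -1.66 (SE 0.52), with adjusted p of 0.00734 and 0.0489.

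Other negative regulators of the pathway were counted in the same way. Of 7 Sprouty and Spred genes, which inhibit ERK activation, 1 was higher and 1 lower at D4, and 2 were higher and 1 lower at D7, with list medians of 0.51 and 0.37. Spred3 stood at 2.94 and 3.56 CPM in control a and b, 17.8 and 18.5 in D4 a and b, and 14.5 and 15.4 in D7 a and b, above the control in all injured libraries. Its log2 fold change was 2.48 (SE 0.16) at D4 and 2.20 (SE 0.16) at D7, with adjusted p of 0.000211 and 0.000473. Spry4 was lower, with -1.06 (SE 0.29) at D4 and -1.60 (SE 0.29) at D7 and adjusted p of 0.0279 and 0.00856, and Spry3 was the other gene called higher at D7. The 4 injured libraries of Spry4 were all below its control libraries. Of 6 other phosphatases of MAP kinases, 2 were called higher at D4 and at D7, with list medians of -0.35 and 0.05. They were the tyrosine phosphatases Ptpn5, with log2 fold changes of 1.94 (SE 0.48) and 1.87 (SE 0.49) and adjusted p of 0.0202 and 0.028, and Ptpn7, with 1.58 (SE 0.19) and 1.16 (SE 0.19) and adjusted p of 0.00139 and 0.00574. Of 11 other dual-specificity phosphatases tested among 16, 1 was called in any comparison, Dusp18, with a log2 fold change of -1.06 (SE 0.10) at D4 and an adjusted p of 0.000679. The medians of that list were -0.34 at D4 and -0.01 at D7.

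Of 12 genes known as transcriptional targets of ERK, 6 were called higher and 1 lower at D4, 3 higher at D7, and 2 lower on D7 than on D4, with medians of 0.85, 0.31 and -0.50. Fosl1, a component of AP-1, stood at 0.206 and 0.482 CPM in control a and b, 20.1 and 21.8 in D4 a and b, and 4.13 and 6.18 in D7 a and b. The groups were ordered control, D7, D4, as for Dusp5 and Dusp10. Its log2 fold change was 5.94 (SE 0.39) at D4, 3.92 (SE 0.40) at D7 and -2.02 (SE 0.28) between D7 and D4, with adjusted p of 0.000215, 0.00113 and 0.025. The cyclin gene Ccnd1 had log2 fold changes of 3.63 (SE 0.19) at D4 and 2.77 (SE 0.18) at D7, with adjusted p of 0.000131 and 0.000381. Fos had 3.12 (SE 0.27) and 2.39 (SE 0.27), with adjusted p of 0.000454 and 0.00147. For both genes, all 4 injured libraries were above both control libraries. The ephrin receptor gene Epha4 was called at D4, with 1.44 (SE 0.30) and an adjusted p of 0.0107. The gene called lower at D4 was Etv1, with -1.20 (SE 0.11) and an adjusted p of 0.000614. Ier3, the other gene lower on D7 than on D4, differed by -1.09 (SE 0.20) with an adjusted p of 0.0404. Dusp6, which is induced by the same kinase, was called higher at both days, and its difference between them was not called.

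**Figure D5:**
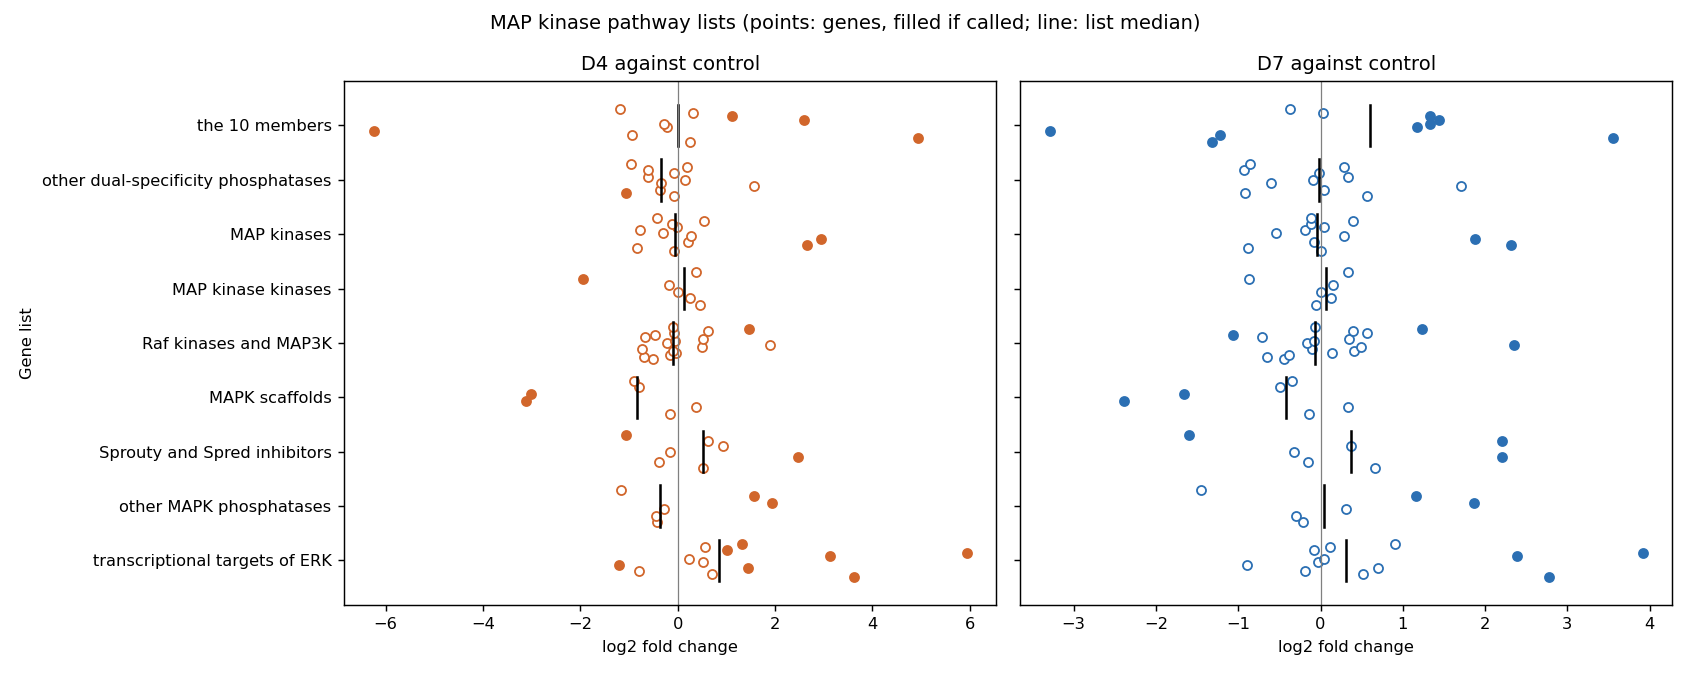
Points show the log2 fold change (horizontal axis) of each tested gene of the 10 members and 8 other lists (vertical axis) at D4 (left) and D7 (right), filled where called, with the list median as a line. The members span from -6.24 to 4.95 at D4.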

How the data were processed

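Sciatic nerve RNA of 6 rats was analysed, 2 libraries in each of 3 groups. Per the submitters' processing notes and the study's methods, the authors mapped reads with HISAT2 2.0.4 to the rat genome (Rnor_6.0 in the notes), assembled transcripts with StringTie 1.3.0 and deposited fragment counts per gene and per lncRNA transcript. The deposited FPKM values were computed by the authors. The study's methods name TMM normalization before the FPKM step, whereas the deposited FPKM values follow the library totals without TMM factors. They were planned for ordering genes by level, and were also summed in each library over the members and over marker lists. No test used them. All 24 sample columns were used, and 0 were left out.

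After removal of low counts (filterByExpr), TMM factors were computed and the quasi-likelihood model of edgeR 4.0.16 (R 4.3.3) was fitted once to the 6 libraries, and again for lncRNAs. P-values were adjusted by Benjamini-Hochberg over all features. The procedure was tested on simulated data. Tables and plots were made with Python 3.11.15, numpy 2.4.6, pandas 2.3.3 and matplotlib 3.10.9. Promoter sequences came from RefSeq (GRCr8), and coordinates of that build were kept apart from those of the files.

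The members and lists were chosen with earlier results of these data known. All members were named, with up to 4 called genes of each list by the size of the D4 fold change (between D7 and D4, of that fold change), the called lncRNAs at member loci and the 5 mRNAs most alike in pattern to the called member with the largest rise and that with the largest fall at D4. Map3k15, Map3k6 and Spry3, called at D7, and members of counts of 5 or fewer were named after their values were seen. Alternatives were DESeq2 1.42.0, dropping the TMM factors, dropping the low-count filter, a minimum of 10 counts per library, fits restricted to both groups of a comparison, a block for the library letter, dropping the fold threshold and leaving out each library.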

Additional observations from a re-analysis of the deposited data

Results flagged for a closer look

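The log2 fold changes of 4 genes at D7 and at D4, each against the same control libraries, differed from each other by the direct test of D7 against D4 with edgeR. That difference was 1.60 for Dusp4, 1.39 for Dusp16, 2.95 for Dusp15 and -1.39 for Dusp10. Dusp4 and Dusp16 were higher on D7 than on D4, Dusp15 was lower than control on both days and less so on D7, and Dusp10 was higher than control on both days and less so on D7. Each value kept its sign under every alternative run, over the ranges 1.47 to 1.74, 1.16 to 1.58, 2.56 to 3.25 and -1.52 to -1.29. None of the 4 was called without D4 a or without D4 b, and Dusp4 and Dusp16 were not called without D7 a.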

How the results depend on the processing

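Over the alternatives other than leaving out a library, 203 of 210 fold changes of members kept their direction and side of the thresholds, and over the libraries left out 155 of 180 did. Without TMM factors the median of all genes moved to 0.25 at D4 and 0.31 at D7, the share of calls that were higher rose from 51.2% to 69.3% at D4 and from 52.1% to 70.4% at D7, and changes are to be read relative to that shift. In that setting Dusp4 (0.014) and Dusp16 (0.068) at D4 turned direction, Dusp7 was 0.60 at D4 and 0.33 at D7, and Dusp1 (-1.03) and Dusp14 (-0.92) were not called at D7. Directions also turned at D4 for Dusp16 without control b (range over libraries left out -0.43 to 0.033) and Dusp1 without D4 a (-0.36 to 0.68), and at D7 for Dusp7 without control a (-0.0032 to 0.085) and Dusp8 without control b (-0.995 to 0.73); the cause was not tested. With no fold threshold, 6715, 5705 and 710 genes were called at D4, at D7 and between D7 and D4, in place of 3333, 2863 and 331. DESeq2 called 505 genes between D7 and D4, where 6 members were called.

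Leaving out a library gave 5 to 8 members called at D7, with 5 without control a. Between D7 and D4 it gave 0 to 469 genes and 0 to 4 members: edgeR called 0 without D4 a or D4 b, where 2054 and 2296 genes had an unadjusted p under 0.05, and without D7 a it called 99 genes and 2 members. There the lone library is assumed to vary like the other groups. The sources used here give no link between libraries with the same letter, and a shared batch was not tested. Their deviations from group means correlated at 0.010 between control and D4, 0.195 between control and D7 and -0.134 between D4 and D7. With the letter as a replicate block, 3281, 2827 and 248 genes and 4, 8 and 4 members were called, and with the D4 letters crossed, added after seeing the data, 3364, 2907 and 334 genes and 4, 8 and 4 members.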
